A study of Mus musculus with 11 samples.

Results

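Tbr1, Fezf2, Cux2, Rorb, Foxp1, Foxp2, Bcl11b, Neurod6 and Emx1 encode transcription factors of the glutamatergic neurons of the pallium, the part of the forebrain that forms the neocortex and the hippocampus. They were taken by gene name from the table of 17118 genes and were selected on their expression values in AC-T and saline mice, known from earlier results on these libraries, and all 9 were found and passed the filter on low counts. Levels of the 9 in AC-T and saline mice are therefore given as a description, and no test of that difference is drawn for them. AC-T is a chemotherapy in which the anthracycline doxorubicin and the alkylating agent cyclophosphamide are followed by paclitaxel, a stabiliser of microtubules. C57/BL6 female mice, 12 weeks old, had 8 intraperitoneal injections, 1 each week. In the AC-T group the first 4 held doxorubicin at 2 mg/kg together with cyclophosphamide at 50 mg/kg and the last 4 held paclitaxel at 5 mg/kg, whereas the control group was given 0.9% saline. The samples carry a one-month label, and the mice bore no tumour or transgene that the labels name. Bulk RNA sequencing of hippocampal punches (0.2 mm, frozen coronal slices) gave 5 libraries from AC-T mice, numbered 501, 502, 503, 600 and 602, and 6 from saline mice, numbered 201, 202, 203, 300, 301 and 302.

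Pallial glutamatergic neurons are specified in the embryo by a cascade of such factors, and many of the factors stay on in the adult, where each marks a set of layers or fields. Emx1 is a homeobox gene of the pallial progenitors and their neurons, and Neurod6 is a basic helix-loop-helix gene of maturing and adult pyramidal neurons. Tbr1, a T-box factor, and Fezf2, a zinc finger factor, mark deep-layer neurons, Tbr1 represses Fezf2 in layer 6, and Bcl11b acts downstream of Fezf2 in subcerebral projection neurons. Cux2 marks upper layers and Rorb layer 4. Several are not restricted to the pallium: Bcl11b, Foxp1 and Foxp2 are also factors of striatal medium spiny neurons, Bcl11b is found in CA1 and dentate granule neurons, and Rorb and Foxp2 are also expressed in the thalamus.

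Library totals ran from 28270241 to 31675640 counts in AC-T mice and from 23389813 to 32121430 counts in saline mice. All 9 CA1 markers and all 12 dentate granule cell markers were above 0 in all 11 libraries, as were 17 of 20 markers of the thalamus and habenula, which lie beside the hippocampus. The thalamic markers summed to between 963 and 1274 CPM (counts scaled by normalised library size) in AC-T mice and between 1578 and 2364 CPM in saline mice. Gbx2, Gpr151 and Pou4f1 were the markers of this list at 0 in some library, and the habenular markers Gpr151 and Pou4f1 were listed at 0 in all 5 AC-T mice. All mice are labelled female, yet Xist, the RNA that coats the silenced X chromosome, had a value of 0 in saline 300, where the remaining 10 libraries had 13057 to 22963 counts. By their leading digit, AC-T mice form series 6 and 5 and saline mice form series 3 and 2. What that digit stands for is not given, and since no series holds both treatments, series and treatment cannot be told apart. In punches of whole tissue, fewer cells of a type and less RNA per cell cannot be told apart either.

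The sequences around the annotated starts of Tbr1 and Fezf2 are shown because their levels lay furthest apart between AC-T and saline and varied together among saline mice. Both are from RefSeq on GRCm38.p6, an older build than the one named in the submitters' notes, and run from 250 bases before the start to 50 bases after it. Tbr1 is at chr2:61804203-61804502 on the plus strand and Fezf2 at chr14:12345816-12346115 on the minus strand. Capitals mark TAATTA, a core read by many homeodomain factors.
Tbr1 promoter: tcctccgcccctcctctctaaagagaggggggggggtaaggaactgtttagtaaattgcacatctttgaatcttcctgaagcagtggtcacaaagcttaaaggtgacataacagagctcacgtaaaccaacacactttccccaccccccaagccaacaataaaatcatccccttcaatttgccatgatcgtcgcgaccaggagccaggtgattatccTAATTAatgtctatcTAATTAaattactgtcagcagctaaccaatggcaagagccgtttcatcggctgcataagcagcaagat
Fezf2 promoter: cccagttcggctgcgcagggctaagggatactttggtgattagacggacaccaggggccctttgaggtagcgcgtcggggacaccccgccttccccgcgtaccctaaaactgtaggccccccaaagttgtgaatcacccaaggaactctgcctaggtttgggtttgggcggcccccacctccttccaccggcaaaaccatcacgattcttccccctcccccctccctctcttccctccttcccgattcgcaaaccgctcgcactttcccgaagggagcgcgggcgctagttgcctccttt
TAATTA, which is its own reverse complement, starts at positions 218 and 233 of the Tbr1 stretch, counted from its 5′ end, and is absent from these letters of Fezf2. It was present in 5.29% of 32851 such promoters. The table held 12 promoters for 8 of the factors, Foxp2 having no entry. TAATTA was in 2 of the 12, those of Tbr1 and of 1 of the 3 Foxp1 starts. On either strand, CAGATG, an E-box, was in 1 of the 12 (Cux2) and in 17.2% of all promoters. GGTGTGA, a T-box half-site, and TGTTTAC, a forkhead site, were in 0 of the 12, and in 3.98% and 3.65% of all promoters. The Fezf2 stretch had 61.3% G and C with 20 CpG and the Tbr1 stretch 46.0% with 7, where the medians over all promoters were 52.7% and 7.

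Tbr1 (ENSMUSG00000035033) was the factor with the largest difference. It stood at 56.6, 51.3, 55.2, 52.6 and 55.0 CPM in AC-T mice 501, 502, 503, 600 and 602, and in saline mice the lowest, median and highest were 17.2, 23.5 and 30.1 CPM. All 5 AC-T mice lay above all 6 saline mice, and the AC-T mice lay closer together, with a coefficient of variation of 3.98% against 20.6% in saline mice. The log2 fold change was 1.22 ± 0.12 (SE), a 2.33-fold higher level. Fezf2 (ENSMUSG00000021743) stood at 32.5, 34.9, 32.7, 25.9 and 28.3 CPM in the same AC-T mice and at a lowest of 8.56, a median of 14.4 and a highest of 21.7 CPM in saline mice. Groups did not overlap, but saline mice differed 2.53-fold among themselves, the widest span of any of the 9 factors in either group. Saline 201 and 202 lay at 8.70 and 8.56 CPM, near one another and below the other 4. The log2 fold change of Fezf2 was 1.06 ± 0.24 (SE).

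Bcl11b (ENSMUSG00000048251), the zinc finger factor also called Ctip2, stood at 115, 99.1, 73.4, 117 and 107 CPM in AC-T mice 501, 502, 503, 600 and 602. In saline mice the lowest, median and highest were 42.4, 77.4 and 91.5 CPM. AC-T 503 fell among the saline mice, so the groups overlapped, with a log2 fold change of 0.49 ± 0.19 (SE). Foxp1 (ENSMUSG00000030067), a forkhead repressor, had 50.3, 51.2, 47.8, 54.6 and 54.5 CPM in AC-T mice, against a lowest of 28.5, a median of 32.7 and a highest of 37.7 CPM in saline mice. Its groups were narrow and lay apart, with a log2 fold change of 0.64 ± 0.06 (SE), the smallest error of the 9 factors. Its close relative Foxp2 (ENSMUSG00000029563), known for its part in vocal learning and speech, had 13.5, 6.16, 9.35, 13.9 and 13.7 CPM in AC-T mice. In saline mice Foxp2 ran from 9.38 through a median of 13.3 to 16.3 CPM, and AC-T 502 and 503 lay below every saline mouse while the other 3 AC-T mice lay among them. The log2 fold change was −0.19 ± 0.21 (SE).

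For the factors of the upper and middle layers the log2 fold changes were below 0, and the groups of Cux2 overlapped while those of Rorb did not. Cux2 (ENSMUSG00000042589), a cut-like homeobox factor of dendrite and synapse formation in upper-layer neurons, stood at 26.2, 32.6, 39.1, 23.7 and 31.3 CPM in AC-T mice 501, 502, 503, 600 and 602. Saline mice had a lowest of 35.0, a median of 43.6 and a highest of 60.9 CPM. AC-T 503 lay above saline 302 and 301, which made the overlap (log2 fold change −0.57 ± 0.16, SE). Rorb (ENSMUSG00000036192), an orphan nuclear receptor, had 27.1, 18.1, 25.5, 17.5 and 20.2 CPM in AC-T mice, and 28.7, 31.8 and 38.6 CPM as the lowest, median and highest in saline mice. AC-T 501, the highest of its group, came within 2 CPM of saline 302 (log2 fold change −0.58 ± 0.12, SE).

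Neurod6 and Emx1, the factors shared by most pallial glutamatergic neurons, were higher in AC-T mice. Neurod6 (ENSMUSG00000037984) stood at 179, 229, 175, 195 and 187 CPM in AC-T mice 501, 502, 503, 600 and 602, and at a lowest of 80.1, a median of 117 and a highest of 149.96 CPM in saline mice. All AC-T mice lay above all saline mice, AC-T 502 furthest (log2 fold change 0.72 ± 0.15, SE). Emx1 (ENSMUSG00000033726), the least counted of the 9, had 9.47, 10.8, 8.28, 10.4 and 9.44 CPM in AC-T mice, from 249 to 315 counts a library. In saline mice it had 5.58, 6.84 and 7.77 CPM as the lowest, median and highest, and the groups did not overlap (log2 fold change 0.51 ± 0.09, SE). None of the 99 values of the 9 factors was listed at 0.

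**Figure D1:**
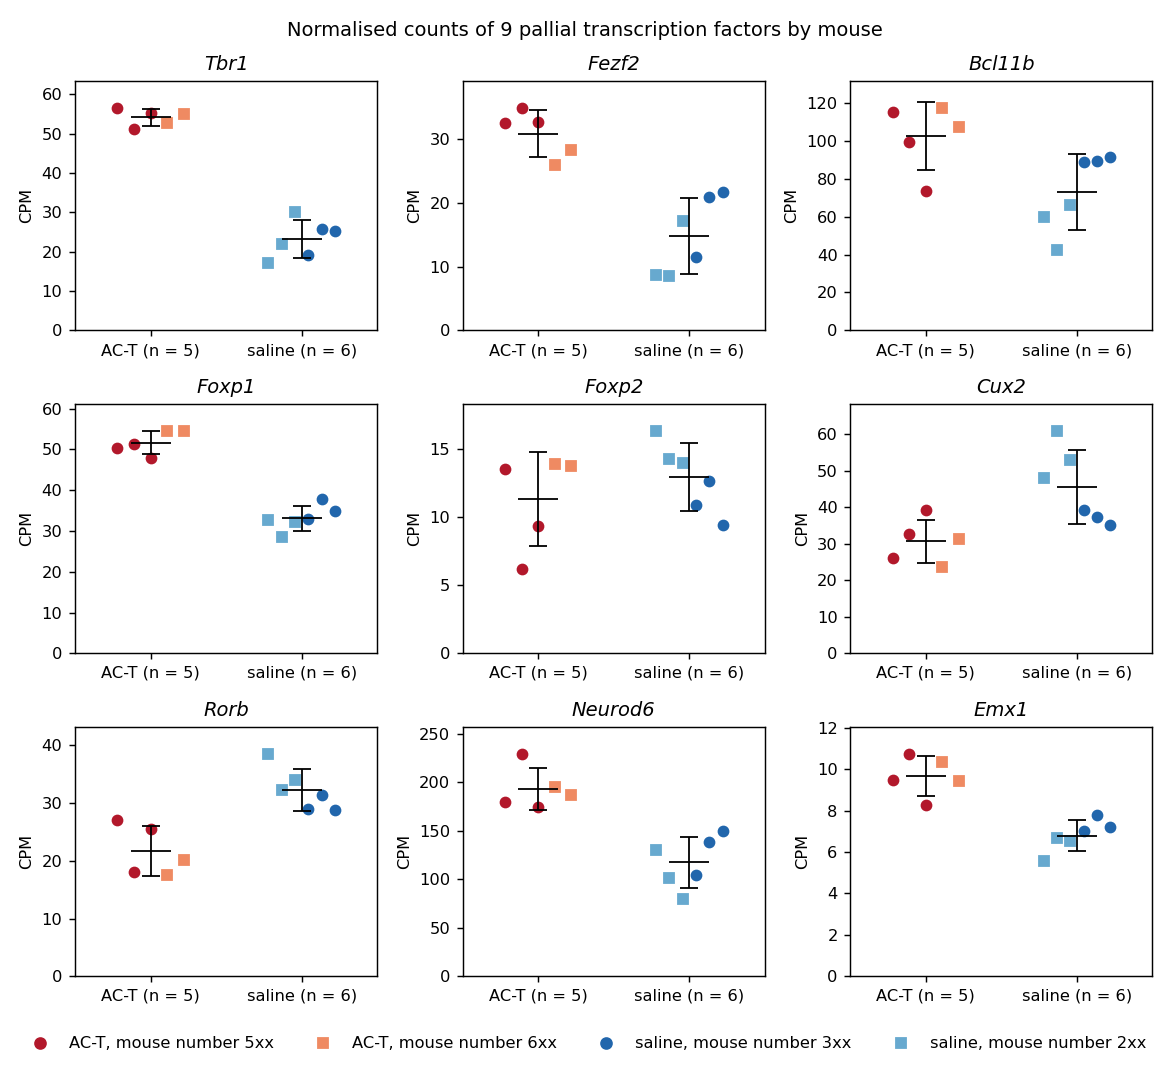
Normalised counts (CPM, linear axis from 0) of the 9 factors in each mouse, AC-T left and saline right. Symbols and shades give the first digit of the mouse number, and bars are the mean ± SD (n = 5 and 6). Tbr1, Fezf2, Foxp1, Rorb, Neurod6 and Emx1 show no overlap between groups.

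Groups did not overlap for 6 of the 9, and for 7.52% of the 15353 genes tested. Because the factors were chosen with this comparison known, nothing is read from that count. In edgeR's quasi-likelihood test, at a Benjamini-Hochberg adjusted p under 0.05, 8.47% of all genes differed between AC-T and saline mice, 4.89% higher and 3.58% lower, which is the background for the lists of other genes.

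Compared per kilobase of the longest annotated transcript, Neurod6 was the most abundant of the 9 in both groups, at 89.8 ± 10.1 CPM per kilobase in AC-T mice and 54.5 ± 12.3 in saline mice (SD, n = 5 and 6). In AC-T mice Tbr1 came next (13.6 ± 0.54), with Fezf2 (12.7 ± 1.51) and Bcl11b (12.6 ± 2.19) within 1 of their own SDs of it. Below them in AC-T mice stood Foxp1 (7.20 ± 0.40) and Emx1 (6.19 ± 0.62), then Cux2 (3.48 ± 0.68), Rorb (2.33 ± 0.47) and Foxp2 (1.67 ± 0.51 CPM per kilobase). In saline mice Bcl11b came second (8.99 ± 2.46), and the next 5, Fezf2 (6.08 ± 2.45), Tbr1 (5.83 ± 1.20), Cux2 (5.18 ± 1.16), Foxp1 (4.61 ± 0.43) and Emx1 (4.35 ± 0.47), lay within the spread of their neighbours. Rorb (3.48 ± 0.39) and Foxp2 (1.91 ± 0.37 CPM per kilobase) were lowest in saline mice. Cux2 thus stood among Tbr1, Fezf2, Foxp1 and Emx1 in saline mice and below all 4 in AC-T mice. Transcripts of these genes differ in length, from a median of 740 to a longest of 8784 bases for Cux2, so that the order depends on which transcripts are used.

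The thalamic markers moved with the group as well. Their score, the mean log2 CPM of 18 markers, was 4.66 to 5.33 in AC-T mice and 5.59 to 6.40 in saline mice, without overlap, and 14 of the 18 fell and 0 rose, with a median log2 fold change of −0.95. The 14 were 13 or 14 with any 1 library left out, 9 without saline series 2, 8 without AC-T series 6, 5 without AC-T series 5 and 11 with series as random effect. The count was 16 without saline series 3 or with DESeq2. Tcf7l2, which acts in Wnt signalling and marks thalamic neurons, fell, with a fold change of 0.377 (34.4 ± 9.39 CPM in AC-T mice and 91.4 ± 25.7 CPM in saline mice; SD, n = 5 and 6; edgeR adjusted p = 0.00550). The covariate fit used the same mean over all 20 markers of the list, taken before the filter on low counts. With this covariate all 9 factors moved nearer to 0 in log2 fold change. Tbr1 stood at 0.92 ± 0.24 and Foxp1 at 0.47 ± 0.12 (SE), and Fezf2 at 0.27 ± 0.40, Neurod6 at 0.26 ± 0.26, Emx1 at 0.26 ± 0.17, Bcl11b at 0.26 ± 0.38, Cux2 at −0.24 ± 0.35 and Rorb at −0.23 ± 0.23. Foxp2 changed sign, to 0.16 ± 0.44. In this fit 1 gene of all those tested passed in edgeR (436 had an unadjusted p under 0.05). The part of thalamic tissue in the levels of the 9 factors was not tested beyond this fit. Score and treatment are hard to separate in it, because the score of 18 markers does not overlap between the groups. With treatment means removed, Pearson r with that score ran from −0.73 (Emx1) to 0.78 (Rorb) among the 9 factors. For the mean log2 CPM of 9 CA1 markers, r ran from −0.60 (Cux2) to 0.81 (Emx1). For that of 29 deep-layer neuron markers, r ran from −0.68 (Bcl11b) to 0.76 (Cux2). With the deep-layer score r was 0.42 for Tbr1 and 0.01 for Fezf2, so r did not follow the layer each factor marks. No CA1 or deep-layer score was used as covariate.

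**Figure D2:**
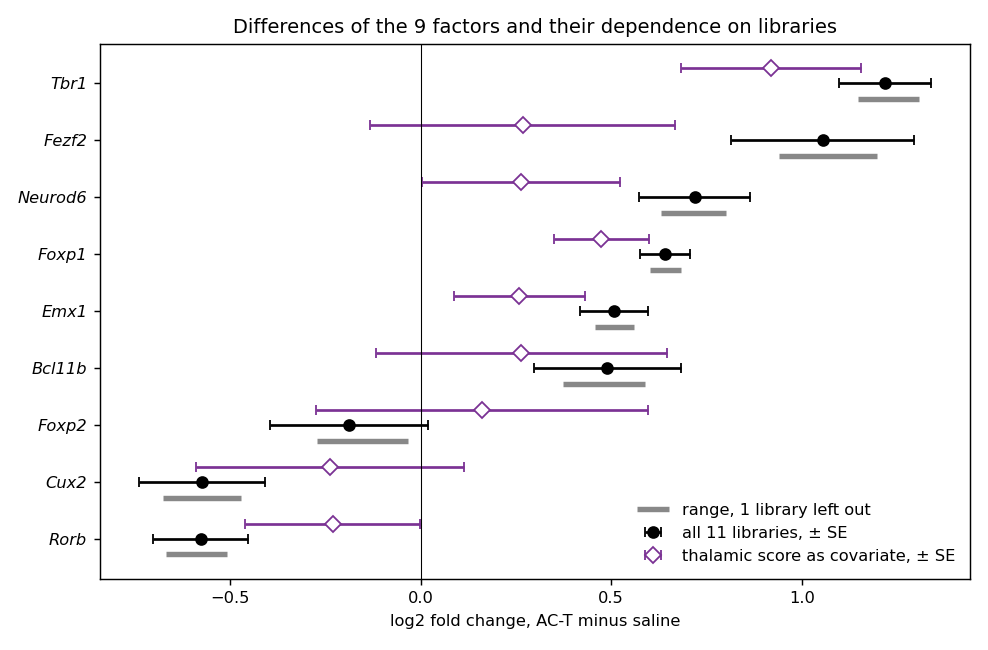
Log2 fold change (AC-T minus saline, horizontal axis) of each factor with all 11 libraries (black, ± SE), the range when 1 library is left out (grey), and the value with the thalamic marker score as covariate (open diamonds, ± SE). Tbr1 at 0.92 and Foxp1 at 0.47 lie furthest above 0 with the covariate.

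The split by first digit of the mouse number was not used in choosing the factors, so it was tested. Between saline series 3 and series 2, 0 of the 9 passed in edgeR, where 1.03% of all genes did, and 3 of the 9 had an unadjusted p under 0.05, as had 20.1% of all genes. Bcl11b averaged 89.7 ± 1.56 CPM in saline series 3 and 56.1 ± 12.3 CPM in saline series 2 (SD, n = 3 each; log2 difference 0.67 ± 0.18 SE; edgeR adjusted p = 0.0888). Cux2 went the other way, with 37.1 ± 2.12 CPM in series 3 and 53.9 ± 6.52 CPM in series 2 (log2 difference −0.54 ± 0.15 SE; edgeR adjusted p = 0.0997). Foxp1 was the third, at 35.1 ± 2.45 CPM in series 3 and 31.1 ± 2.21 CPM in series 2 (log2 difference 0.18 ± 0.07 SE; edgeR adjusted p = 0.180). Saline series did not overlap for 6 of the 9 (Bcl11b, Cux2, Foxp1, Rorb, Emx1 and Foxp2), nor for 27% of all genes. In all 6, series 3 differed from series 2 in the direction in which AC-T mice differed from saline mice on average. Both held for 14% of all genes. That direction comes from the comparison the factors were chosen on, so nothing is read from the 6. For Foxp2 the AC-T difference was smaller than its error (log2 fold change −0.19 ± 0.21, SE). Tbr1 had nearly the same mean in both, 23.4 ± 3.74 CPM in series 3 and 23.03 ± 6.54 CPM in series 2 (log2 difference 0.01 ± 0.18 SE; edgeR adjusted p = 0.981). The thalamic score was 5.59 to 5.85 in series 3 and 6.16 to 6.40 in series 2.

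Between AC-T series 6 and series 5, 0 of the 9 passed in edgeR, where 0.117% of all genes did, and 0 had an unadjusted p under 0.05, where 13.5% of all genes had one. Foxp2 had the largest difference, 13.8 ± 0.11 CPM in series 6 (SD, n = 2) and 9.66 ± 3.68 CPM in series 5 (SD, n = 3), a log2 difference of 0.51 ± 0.25 (SE; edgeR adjusted p = 0.417). Rorb was at 18.8 ± 1.93 CPM in series 6 and 23.6 ± 4.795 CPM in series 5 (log2 difference −0.32 ± 0.16 SE; edgeR adjusted p = 0.412). Of 13 markers of striatal medium spiny neurons 12 were tested, and 0 of these passed between these series. Of the 13, 11, with Bcl11b, Foxp1 and Foxp2 not among them, were above 0 in every library, and Isl1 and Six3 were listed at 0 in some. Their sum was 546 and 392 CPM in AC-T 600 and 602, and 230.5, 200.1 and 317 CPM in AC-T 501, 502 and 503, against 205 to 349 CPM in saline mice. AC-T 502 had both the lowest striatal sum and the lowest Foxp2, and the part of these markers in the Foxp2 levels was not tested.

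Of the 9 factors, Bcl11b moved furthest when a saline series was left out, and Cux2 moved with it in the other direction. Without saline series 2 their log2 fold changes were 0.19 and −0.28, and without saline series 3 they were 0.86 and −0.83. Fezf2 stood at 0.77 without saline series 2 and at 1.40 without saline series 3. Foxp2 was at 0.05 without saline series 2 and 0.09 without AC-T series 5, so its sign depended on the series. Tbr1 kept to 1.20 to 1.22 whichever series was left out. Without saline 300, the library with Xist at 0, the largest move of any factor was 0.072 on the log2 scale (Fezf2).

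Within treatments the 9 factors did not vary as a block. Of their 36 pairs, 17 had a positive and 19 a negative Pearson r of log2 CPM over 11 libraries with the treatment means removed. These r values are a description of libraries that share their tissue punch and depth. The closest opposition was between Bcl11b and Cux2, with r = −0.93 and Spearman rho −0.93. Without saline 302 and AC-T 600 r was −0.94. These are the 2 libraries furthest from the median of Cux2 after removal of the treatment means. The ratio of Bcl11b to Cux2 CPM ran from 1.88 in AC-T 503 to 4.95 in AC-T 600, and from 0.696 in saline 202 to 2.61 in saline 302. Foxp1 followed Bcl11b (r = 0.84) and opposed Cux2 (−0.79), Tbr1 followed Fezf2 (0.74), and Rorb opposed Emx1 (−0.76). For Tbr1 with Fezf2, r was 0.01 in AC-T mice (n = 5), where Tbr1 hardly varied, and 0.77 in saline mice (n = 6).

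**Figure D3:**
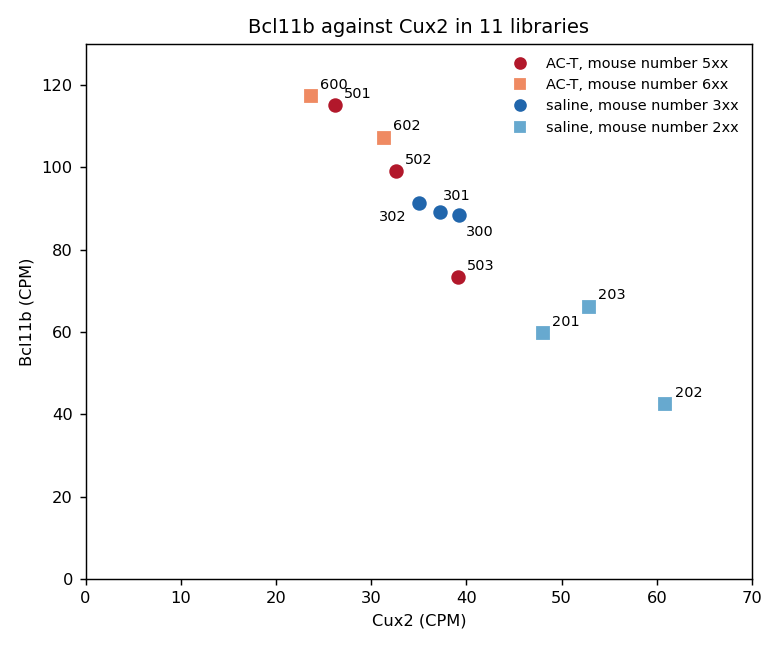
Bcl11b (vertical, CPM) against Cux2 (horizontal, CPM) in each of 11 libraries, labelled by mouse number, with both axes from 0. Libraries run from AC-T 600 (23.7 CPM Cux2, 117 CPM Bcl11b) to saline 202 (60.9 and 42.4 CPM), and saline series 3 lies between saline series 2 and most AC-T mice.

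**Figure D4:**
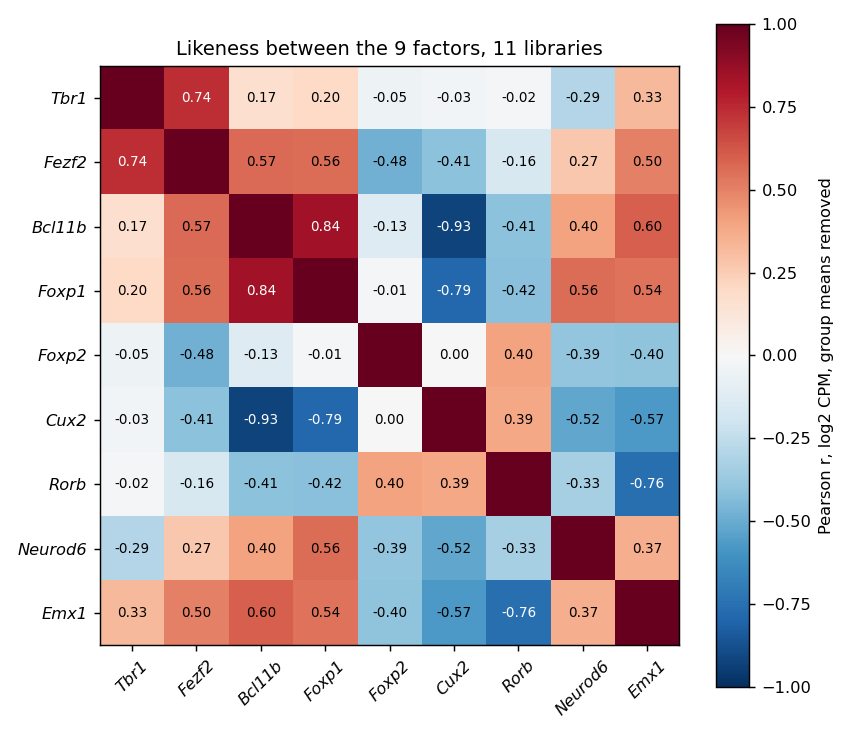
Pearson r of log2 CPM between each pair of factors over 11 libraries after removal of the treatment means, from −1 (blue) to 1 (red). Bcl11b and Foxp1 (0.84) form the reddest pair and Bcl11b and Cux2 (−0.93) the bluest.

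The genes that varied most like each factor within treatments were ranked by the same r among 12512 other named genes whose log2 CPM averaged 1 or more, so that each r is the highest of many. Nearest to Tbr1 were Ier5, an immediate early gene (0.93), Nxph3, a neurexin ligand (0.93), and Etv5, an ETS transcription factor (0.92). In AC-T mice alone, where Tbr1 hardly varied, r was 0.07 for Ier5, 0.35 for Nxph3 and 0.91 for Etv5. In saline mice alone r was 0.98, 0.94 and 0.93 for the same genes. Nearest to Fezf2 were Prss12, the protease neurotrypsin (0.98), Phactr1, which binds actin and protein phosphatase (0.95), and Socs7 (0.94). For Bcl11b they were Iqgap2, a scaffold protein (0.97), Tle1, a corepressor (0.97), and Mfsd4 (0.97), and for Foxp1 Garem (0.95), Sypl2 (0.95) and Tnks1bp1 (0.94). Foxp2 was followed by the kinase gene Stk38 (0.96), the RNA-binding protein gene Tial1 (0.95) and Nexn (0.95). Cux2 varied with Dpp10, an auxiliary subunit of potassium channels (0.96), Nap1l5 (0.96) and Klhdc8a (0.96), and Rorb with Sdk2, a synaptic adhesion protein (0.95), Ly6c1, an endothelial antigen (0.90), and Epb4.1l4b (0.89). Neurod6 varied with Fam19a1 (0.98), Slc9a2 (0.95) and Slc17a7, the vesicular glutamate transporter of pallial neurons (0.94), and Emx1 with the kinase gene Cdc42bpb (0.96), Nfix, a nuclear factor I gene (0.90), and the ephrin receptor gene Ephb2 (0.90). Of these 27 genes, Ier5, Nxph3, Etv5, Prss12, Phactr1 and Slc17a7 also rose in AC-T against saline mice and Klhdc8a, Epb4.1l4b and Nexn fell (edgeR, adjusted p under 0.05). Klhdc8a was near the threshold (edgeR adjusted p = 0.0448). Of all genes 8.47% differed in either direction. The factors these genes resemble were chosen with this comparison known, so nothing is read from the number called. Nxph3 was at 29.9 CPM in AC-T mice and 12.2 CPM in saline mice on average, and Slc17a7 at 1022 CPM in AC-T mice and 795 CPM in saline mice.

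Of 8 paralogues of the 9 factors, 1 rose and 1 fell in edgeR. Bcl11a, the paralogue of Bcl11b, rose 1.54-fold, with 86.3 ± 6.10 CPM in AC-T mice and 56.1 ± 4.50 CPM in saline mice (adjusted p = 0.000657). Rora, the nuclear receptor closest to Rorb and likewise expressed in the thalamus, fell to 0.534 of its saline level, with 83.1 ± 14.7 CPM in AC-T mice and 155 ± 27.9 CPM in saline mice (adjusted p = 0.00552). Foxp4 averaged 38.3 ± 2.21 CPM in AC-T mice and 38.97 ± 2.08 CPM in saline mice (log2 fold change −0.03 ± 0.05 SE). Cux1, expressed in upper layers like Cux2, had 44.4 ± 3.002 CPM in AC-T mice and 52.96 ± 6.57 CPM in saline mice (−0.26 ± 0.08 SE, adjusted p = 0.0829). Emx2 (0.22 ± 0.09), Neurod2 (0.27 ± 0.15) and Neurod1 (−0.26 ± 0.22) were not past the threshold either (log2 fold change ± SE). Salmon divides reads between similar sequences, and counts with a fraction occurred for Foxp1 in 8 libraries and for Cux2 in 4.

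Among 43 other pallial transcription factors 12 rose and 0 fell in edgeR, with a median log2 fold change of 0.25, where 4.89% of all genes rose and the median over all genes was 0.00. Besides Bcl11a, the smallest p belonged to Tle4, a corepressor of deep-layer neurons (1.33-fold, 59.8 ± 1.32 CPM in AC-T mice and 45.02 ± 3.86 CPM in saline mice, adjusted p = 0.00254). Sox5, which times the birth of deep-layer neurons, rose 1.30-fold (adjusted p = 0.00456), and Tcf4, a broadly expressed helix-loop-helix factor, 1.29-fold (adjusted p = 0.0121). These 4 calls held when any 1 library was left out. The count of 12 was 7 without saline 300, AC-T 502 or saline series 2, 6 without AC-T 602, 5 without AC-T series 6, 2 without AC-T series 5, 5 with series as random effect (limma-voom, estimated correlation 0.215), and 0 with the thalamic score as covariate. It was 18 with DESeq2 and 17 without saline series 3.

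Genes tied to Tbr1 by binding or knockout studies in mouse cortex moved both ways. Of 11 besides the factors themselves, 3 rose (Bcl11a, Sox5 and Nr4a2) and 1 fell, with a median log2 fold change of 0.06, and with series as random effect 2 rose and 1 fell. The gene that fell was Ntng1, the axon guidance protein netrin G1, which is also a thalamic marker, at 49.7 ± 4.78 CPM in AC-T mice and 95.5 ± 17.5 CPM in saline mice (edgeR adjusted p = 0.00197).

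Markers of cortical layers were counted without the 9 factors. Of 29 deep-layer markers 9 rose and 2 fell in edgeR (median log2 fold change 0.34), and of 18 upper-layer markers 1 rose and 1 fell (median −0.11). With series as random effect 4 deep-layer markers rose and 0 fell, and 1 upper-layer marker rose and 0 fell. Besides Tle4, the deep-layer genes with the smallest p were Sulf2, an endosulfatase of heparan sulfate (1.28-fold, adjusted p = 0.00552), Rprm, a marker of layer 6 neurons (1.81-fold, 29.7 ± 4.97 CPM in AC-T mice and 16.4 ± 2.97 CPM in saline mice, adjusted p = 0.00552), and Nxph3 (2.43-fold, adjusted p = 0.0121). Pcp4, which is also a CA2 marker, and Opn3, an opsin named here after its values were seen, were the deep-layer genes that fell. The 9 that rose were 5 without AC-T 502 or saline series 2, 4 without AC-T series 6 and 1 without AC-T series 5. They were 14 with DESeq2 and 12 with limma-voom. Lamp5, a membrane protein of upper-layer neurons and a class of interneurons, rose 1.51-fold (adjusted p = 0.00707), and Kitl, the ligand of the Kit receptor, fell to 0.633 of saline (adjusted p = 0.0232, and at most 0.0622 with 1 library left out, lost without AC-T 502, 600 or 602). Of 11 markers of the subplate, claustrum and layer 6b, 2 rose (median 0.35): Cplx3, a complexin, 2.40-fold (22.96 ± 3.82 CPM in AC-T mice and 9.54 ± 3.25 CPM in saline mice, adjusted p = 0.00903), and Nr4a2, an orphan nuclear receptor, 1.84-fold (adjusted p = 0.0358, and at most 0.0967 with 1 library left out, lost in 7 of 11 such fits). With series as random effect 1 of the 11 rose. With the thalamic score as covariate 0 genes of these 3 lists passed in edgeR, with medians of 0.18, −0.05 and 0.37 for the deep-layer, upper-layer and subplate lists. The part of the thalamic markers in these differences was not tested further.

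**Figure D5:**
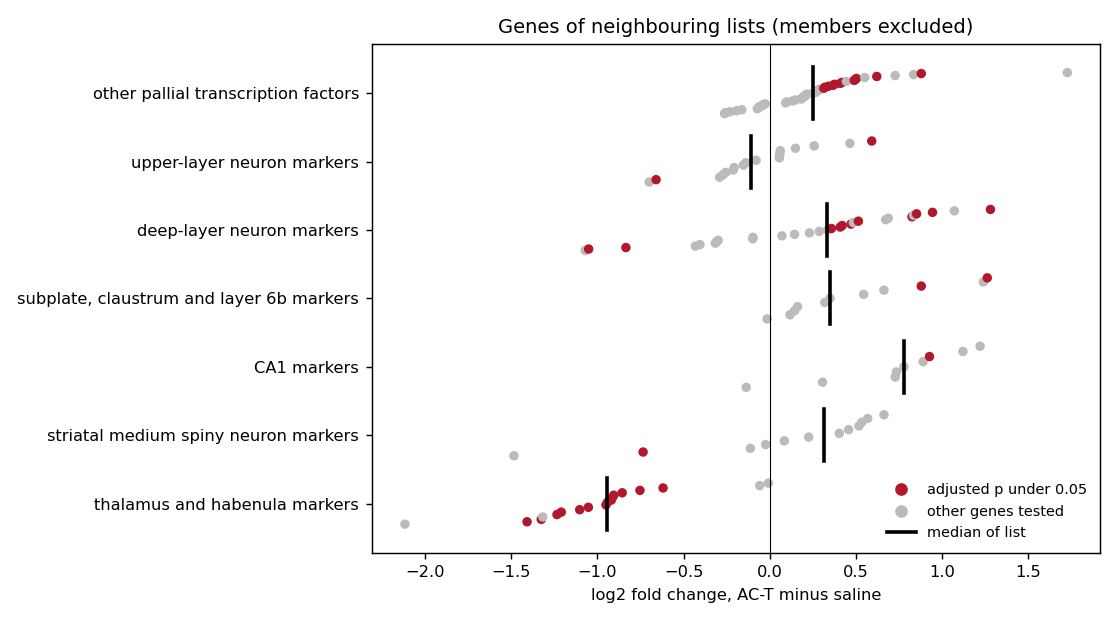
Log2 fold change (AC-T minus saline, horizontal axis) of each tested gene in 7 lists, the 9 factors left out, with genes at an edgeR adjusted p under 0.05 in red and the list median as a black bar. Medians run from −0.95 for thalamic markers to 0.78 for CA1 markers.

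Other lists place the 9 factors among the cells a punch can hold. Of 9 CA1 markers 1 rose, Mpped1, a metallophosphoesterase (1.90-fold, edgeR adjusted p = 0.0255, and at most 0.0686 with 1 library left out, lost without AC-T 502 or 602 or saline 202 or 300), and the median log2 fold change was 0.78. The count of CA1 markers that rose was 6 without saline series 3 (median 1.38), and 3 with DESeq2, with limma-voom or without saline 302. It was 1 without saline series 2 and 0 without AC-T series 5 or 6. CA1 scores were 5.39 to 5.83 in AC-T mice and 3.69 to 5.29 in saline mice. Between saline series 3 and 2, 3 of the 9 CA1 markers were higher in series 3 (median log2 difference 0.93), among them Fibcd1 (2.25 ± 0.23 SE, edgeR adjusted p = 0.00575), named after its values were seen. Of 11 CA2 and CA3 markers 2 fell, Cacng5 and Pcp4 (median 0.04), of 12 dentate granule cell markers 0 passed (median −0.18, with Stxbp6 and Calb1 the most abundant), and of 7 subiculum markers 1 rose (Tle4) and 1 fell (Slc17a6; median 0.10). Among 12 striatal markers Ebf1 fell and no gene rose (median 0.31), and among 6 Cajal-Retzius markers Calb2 fell (median 0.03). Slc17a6 and Calb2 are also on the thalamic list, Calb2 is on the interneuron list too, and Tle4 is also a deep-layer marker. Their calls are therefore counted in more than 1 list. Of 13 general and glutamatergic neuron markers 3 rose, Slc17a7, Syt1 and Nrgn (median 0.24), and of 16 interneuron markers 5 rose and 3 fell (median 0.40). Sst, Lhx6 and Dlx1 had the smallest p among those that rose and Adarb2 among those that fell. The 3 interneuron markers that fell were 1 without AC-T 501, 502, 600 or 602 or saline 201. With series as random effect 2 interneuron markers rose and 1 fell, 1 CA2 and CA3 marker fell, and 0 of the CA1, general and glutamatergic neuron, Cajal-Retzius, astrocyte and endothelial markers passed. The calls of Calb2, Slc17a7, Syt1, Aqp4, S100b and Pecam1 were each lost in 7 to 9 of the 11 fits without 1 library, and that of Pcp4 in 2. Of 10 astrocyte markers Aqp4 and S100b fell (median −0.19), of 10 endothelial markers Pecam1 fell (median −0.19), and 0 of 10 oligodendrocyte (median −0.05), 0 of 10 microglial (median 0.07) and 0 of 9 choroid plexus and ependymal markers (median 0.27) passed in edgeR. The choroid plexus and ependymal markers varied widely between mice, with sums of 89.5 to 5515 CPM in AC-T mice and 24.2 to 5642 CPM in saline mice. Their median was −0.86 without AC-T series 6 and 1.85 without saline series 3.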

How the data were processed

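Hippocampal punches gave poly(A) libraries, sequenced on an Illumina NextSeq instrument. Per the submitters' processing notes, Dragen 4.3.6, FastQC 0.11.9, Salmon 1.9.0 and the build GRCm39 were used. The annotation release and the step that wrote the table are not given in the sources used here. The values the authors deposited are expected counts, estimated by Salmon per gene, and between 13.7% and 14.7% of them per library have a fraction. They were rounded. The series states 6 samples per group, and 5 AC-T libraries were analysed here.

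Genes were filtered with filterByExpr (minimum count 10), scaled by TMM and fitted by quasi-likelihood in edgeR 4.0.16 (R 4.3.3), with 2-sided tests called at a Benjamini-Hochberg adjusted p under 0.05. Series were compared in a model with 4 group means. Log2 CPM used a prior count of 2. The scripts were tested on simulated data. Mice are separate animals. Transcript lengths are from GENCODE M21.

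The 9 factors and the 20 other lists were chosen with earlier results of these data known. Named are all 9 factors, their paralogues (1 not reported here), up to 4 genes with the smallest p of each list (the 2 most abundant where none passed), and 3 genes most like each factor. Alternatives were RLE, upper-quartile or no scaling factors, other filters, robust dispersion, DESeq2 1.42.0, limma-voom (limma 3.58.1), series as random effect, a thalamic covariate, unrounded values, and omission of each library or series.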

Additional observations from a re-analysis of the deposited data

How the results depend on the processing

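Log2 fold changes of the 9 factors kept their sign under all 26 alternatives, apart from Foxp2, which changed sign in 3. With 1 library left out they ran from 1.15 to 1.31 for Tbr1, 0.94 to 1.20 for Fezf2, 0.60 to 0.68 for Foxp1, 0.63 to 0.80 for Neurod6, 0.46 to 0.56 for Emx1, 0.37 to 0.59 for Bcl11b, −0.27 to −0.03 for Foxp2, −0.68 to −0.47 for Cux2 and −0.67 to −0.51 for Rorb. Over all genes, the 751 higher and 550 lower in AC-T against saline mice became 1380 and 1186 with DESeq2, 169 and 124 with series as random effect in limma-voom, and 1 and 0 with the thalamic score as covariate. They became 112 and 205 without AC-T series 5, 215 and 194 without AC-T series 6, and 395 and 154 without saline series 2. Library totals without scaling factors gave 487 higher. Leaving out 1 library gave 348 to 745 higher and 277 to 544 lower. Of the 43 other pallial transcription factors, 12 higher became 5 with series as random effect or without AC-T series 6, 7 without saline series 2, 2 without AC-T series 5 and 0 with the covariate, and 6 to 14 with 1 library left out. The 12 became 18 with DESeq2 and 17 without saline series 3. The 0 lower became 1 with DESeq2 or without saline series 3, and 0 to 1 with 1 library left out. Between AC-T series 6 and 5, 12 genes were higher and 6 lower, 0 and 0 by limma-voom, and 11 to 43 and 4 to 96 with 1 library left out, where series 6 is left with 1 library that is assumed to vary like the others. Between saline series 3 and 2, 81 were higher and 77 lower, with 325 lower by library totals, 128 lower by limma-voom, and 10 to 160 and 6 to 144 with 1 library left out. The causes were not tested. No paired analysis was possible because AC-T and saline mice share no mouse number. With 5 and 6 mice, and series nested in treatment, the errors of AC-T against saline in edgeR treat mice of the same series as independent. They make no allowance for mice of a series being alike, and can be too small.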
